A study of Homo sapiens with 6 samples.

Results

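The proteasome is the barrel-shaped protease that breaks down proteins tagged with ubiquitin. The genes described here are all those whose symbol in the deposited count files is PSMA, PSMB, PSMC, PSMD, PSME, PSMF or PSMG followed only by digits, which gave 48 of the 24462 symbols. The rule used names and no measured value. The libraries came from 1CT, colon epithelial cells of human origin that were immortalized and are labelled wild type (WT), and from 1CT-A, the derived line with depleted APC, which is labelled APC KD. There were 3 libraries of each, from untreated cells grown with 20 ng/mL epidermal growth factor, hydrocortisone, insulin, transferrin, selenite and 2% FBS. Both lines carry hTERT, the telomerase gene, and both came to the study as established lines from another laboratory, so that APC depletion and other differences between the lines cannot be told apart. Nothing in the labels tells whether the 3 libraries of a line came from separate cultures, and the p-values then measure only the spread between these libraries, which may be technical.

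In the core particle, outer rings of alpha subunits form a gate and inner rings of beta subunits hold the proteolytic sites. The cap binds ubiquitin chains, removes them, and unfolds the substrate with a ring of ATPases. Interferon-gamma induces alternative catalytic beta subunits, the immunoproteasome, which favour peptides for MHC class I display, and in the intestinal epithelium, as elsewhere, fast-dividing cells depend on the proteasome to remove cyclins and other short-lived regulators.

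The libraries held 7788679 to 8452258 counts in 1CT and 11158108 to 12602988 in 1CT-A, so that 1CT-A was deeper by a factor of 1.43. Levels are given as CPM, a gene's counts per 1000000 counts of its library. APC itself was at 49.3, 43.8 and 46.6 CPM in the 1CT libraries and at 31.5, 30.0 and 34.4 CPM in the 1CT-A libraries, a log2 fold change of -0.58 (SE 0.09, edgeR adjusted p = 1.8e-04). Most defining epithelial markers were at or near 0. EPCAM had no count in any library, CDH1 had at most 4, KRT8 at most 14, and KRT19 had 20 to 34 counts in 1CT and none in 1CT-A. KRT18 had 36 to 109 counts, and the 5 epithelial markers had a summed level of 13.3 to 17.3 CPM over the 1CT libraries and of 3.23 to 7.20 CPM over those of 1CT-A. All 7 markers of differentiated colon had at most 3 counts in every library. By contrast, the 7 fibroblast markers summed to between 4326 and 5388 CPM in 1CT and between 4135 and 4432 CPM in 1CT-A. They went in both directions, with COL3A1 (log2 fold change 2.37) and DCN (0.30) called higher in 1CT-A, COL1A1 (-0.59), PDGFRB (-0.98) and VIM (-0.20) called lower, and COL1A2 and LUM not called. The part of these marker differences in the results was not tested. 1CT replicate 3 stood somewhat apart from its group. Its chi-square per degree of freedom was 7.54 and 9.0 against the other 1CT libraries, which differed from each other by 3.8. It was the lowest of the 6 libraries for 19 of the proteasome genes, as 1CT replicate 2 was for 16, but its summed share of counts in these genes was the highest of the 1CT libraries.

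More proteasome genes were called higher than lower in 1CT-A, by small amounts. Of the 48 genes, 46 had enough counts to be tested. With calls made where the adjusted p was below 0.05, 21 were higher, 2 were lower and 23 were not called (quasi-likelihood test of edgeR, with p-values adjusted by Benjamini-Hochberg over all 12514 genes tested). The higher share was 45.7% of the members, against 25.0% of all genes tested and 31.4% of the 8224 genes that averaged 10 CPM or more, a level that all 46 members reached. The lower share was 4.35%, against 26.0% and 23.4%. The median log2 fold change of the members was 0.19, beside -0.01 over all genes and 0.06 over the well-counted genes, and 36 members had a positive and 10 a negative value. On the plain CPM scale, 27 members (58.7%) had every 1CT-A library above every 1CT library, where 31.8% of all genes did, and 3 (6.52%) had the reverse order, where 27.9% did.

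The differences were small. The called rises ran from 1.14-fold to 1.5-fold, and PSMD11 alone was called with a fold change of at least 1.5. That is 2.17% of the members, beside 28.3% of all genes tested, which passed it in either direction. The quartiles of the members' log2 fold changes were 0.06 and 0.37, while the quartiles of all genes were -0.40 and 0.33. The plot of fold changes among well-counted genes shows most members to the right of 0. Without 1CT replicate 3, 24 members were higher and 2 lower, and with each of the 6 libraries left out in turn the counts were 16 to 24 higher and 1 to 2 lower. Since this was bulk RNA, less RNA per cell and fewer cells with that RNA cannot be told apart in any of these values.

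**Figure D1:**
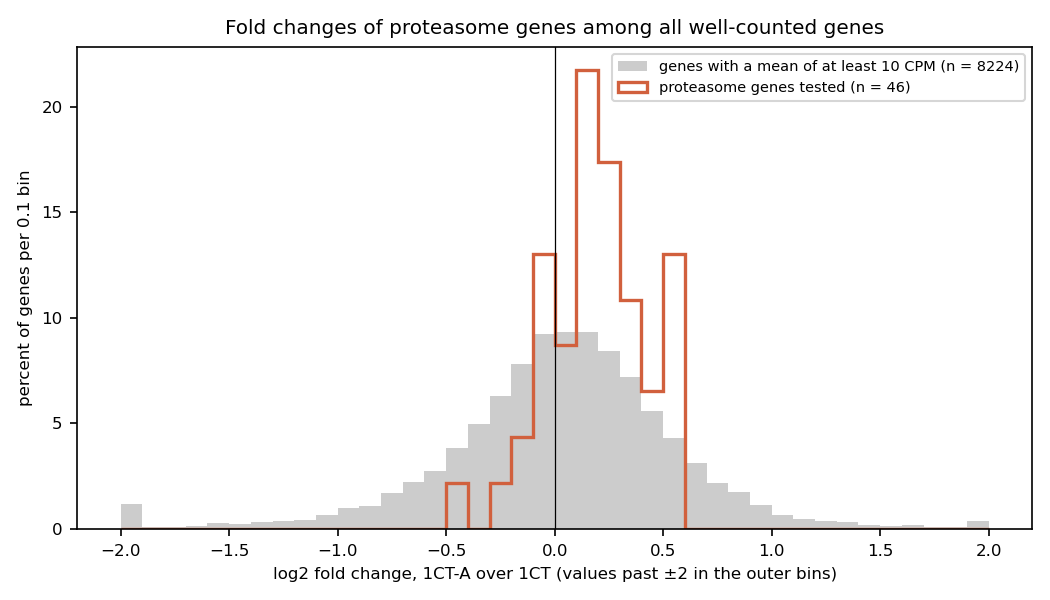
Distribution of log2 fold changes of 1CT-A over 1CT (horizontal axis) as a percentage of genes per bin of 0.1 (vertical axis), in grey for the 8224 genes that averaged 10 CPM or more and as an orange line for the 46 proteasome genes tested. Grey values beyond the ends of the axis are in the outer bins. The proteasome genes span -0.43 to 0.59, inside the range of the grey genes, with a median of 0.19.

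The alpha ring genes encode the gate and the docking surface of the core. Of the 7 that were tested, 5 (71.4%, against 25.0% of all genes tested) were higher in 1CT-A and none was lower. The median log2 fold change was 0.25. PSMA3 rose most. It was at 97.4, 105 and 77.5 CPM in the 1CT libraries and at 140, 141 and 138 CPM in the 1CT-A libraries, a log2 fold change of 0.54 (SE 0.09, edgeR adjusted p = 3.8e-04). The 1CT-A libraries lay close together and above all 1CT libraries, of which replicate 3 was the lowest. PSMA2 (0.45), PSMA1 (0.44), PSMA4 (0.25) and PSMA7 (0.19) also rose on the log2 scale. PSMA5 and PSMA6, with values of 0.22 and 0.17, were not called (edgeR adjusted p = 0.162 and 0.128). The calls of PSMA4 and PSMA7 depended on the scaling and on single libraries. With upper-quartile scaling both were lost, at 0.19 and 0.13 (edgeR adjusted p = 0.0577 and 0.101). PSMA7 also lost its call with the replicate block (0.19, edgeR adjusted p = 0.0548). Some fits with 1 library left out lost both calls, while the fold changes stayed of similar size. Without 1CT replicate 1 the log2 fold changes were 0.22 and 0.17 (edgeR adjusted p = 0.0687 and 0.0754), and without 1CT-A replicate 1 they were 0.20 and 0.16 (edgeR adjusted p = 0.0841 and 0.0895). PSMA8, the testis form that takes the place of PSMA7, had at most 1 count in a library, below the 3 counts taken as visible (0.355 to 0.385 CPM in 1CT, 0.238 to 0.269 CPM in 1CT-A), and the exact two-sided permutation test gave p = 0.4.

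Of the 4 beta ring genes without a catalytic site, 2 were higher in 1CT-A and none was lower. PSMB2 rose from 125, 128 and 116 CPM to 149, 149 and 158 CPM, a log2 fold change of 0.27 (SE 0.07, edgeR adjusted p = 0.00635). PSMB3 rose from 41.5, 36.8 and 41.1 CPM to 45.8, 49.9 and 50.3 CPM (0.25, SE 0.09, edgeR adjusted p = 0.0302). Both genes had all 1CT-A libraries above all 1CT libraries, as did 31.8% of all genes tested. The call of PSMB3 was lost without 1CT replicate 2, without 1CT-A replicate 2 and without 1CT-A replicate 3 (edgeR adjusted p = 0.114, 0.0867 and 0.102). PSMB4 and PSMB1 were not called, at 0.16 and 0.12 on the log2 scale, but without 1CT replicate 3 they were at 0.17 and 0.21 and passed (edgeR adjusted p = 0.0487 and 0.00525). PSMB4 also passed with scaling by library size only (0.19, edgeR adjusted p = 0.0326) and with no filter (0.20, edgeR adjusted p = 0.0459).

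**Figure D2:**
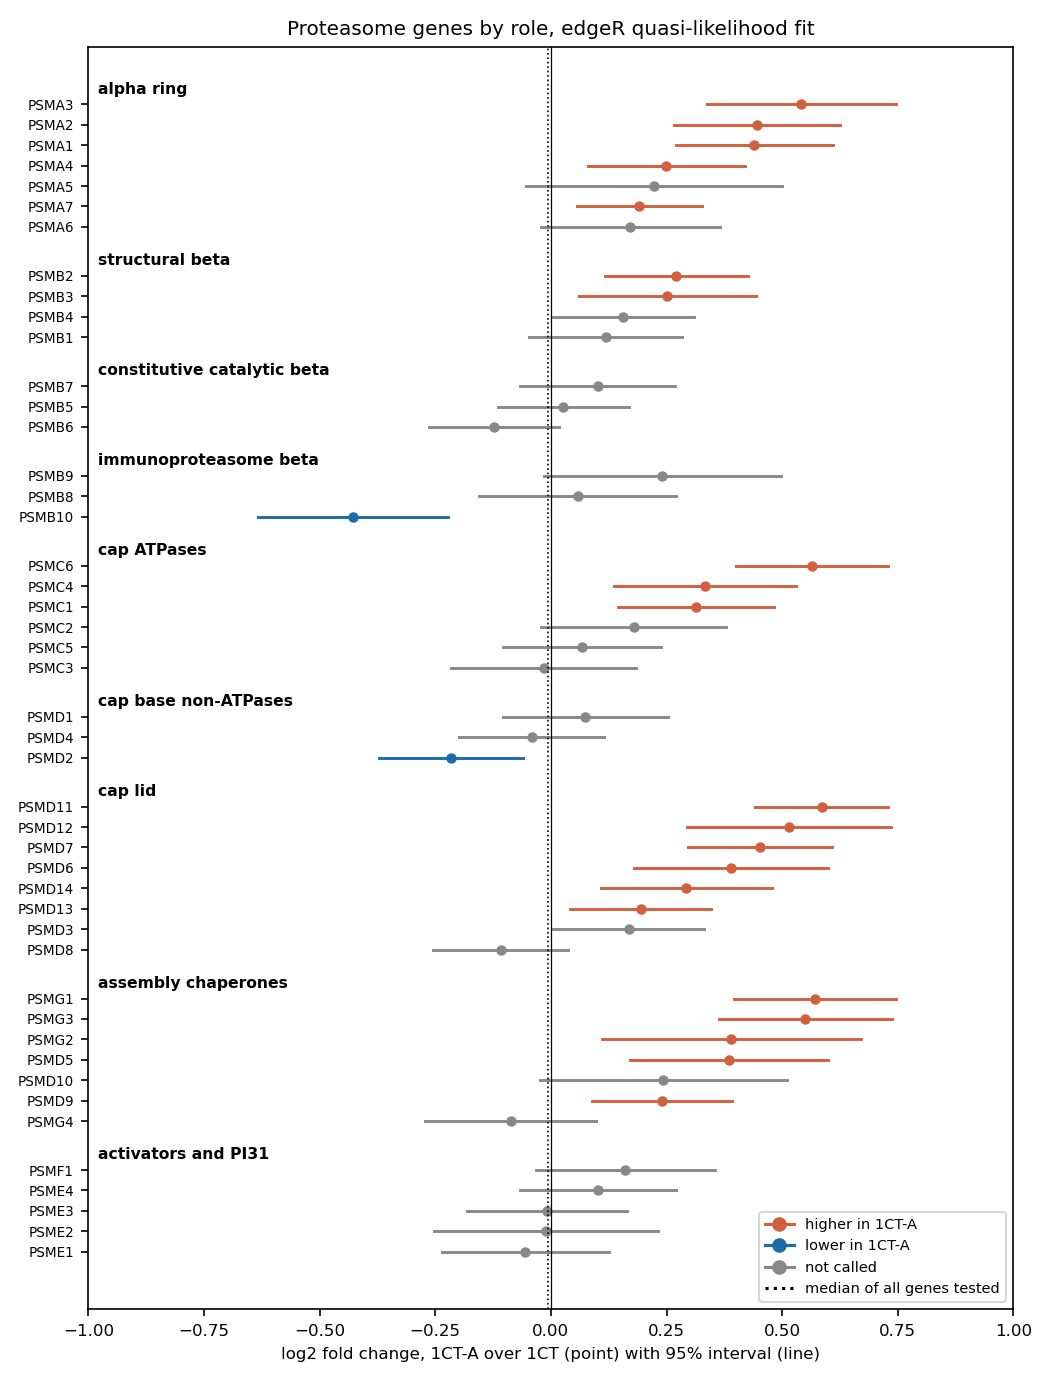
Log2 fold change of 1CT-A over 1CT (horizontal axis, point) with its 95% interval from the edgeR fit (line, not adjusted for the number of genes) for each of the 46 proteasome genes tested, grouped by role on the vertical axis. Orange marks genes called higher in 1CT-A, blue genes called lower and grey genes not called. The dotted line is the median of all genes tested. Orange marks 5 of 7 genes in the alpha ring, 6 of 8 in the cap lid and 5 of 7 among the assembly chaperones, and none stands among the catalytic beta genes or the activators. Of all genes tested, 25.0% were called higher.

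None of the 3 constitutive catalytic beta genes was called, where 51.0% of all genes tested were called in either direction. PSMB5, which carries the chymotrypsin-like site, was at 438, 431 and 474 CPM in 1CT and at 468, 473 and 465 CPM in 1CT-A, and the groups overlapped. Its log2 fold change was 0.03 with a 95% interval from -0.12 to 0.17 (edgeR adjusted p = 0.753), which leaves out a rise of the size seen for PSMA3. PSMB7, with the trypsin-like site, was at 706, 692 and 818 CPM and at 850, 793 and 799 CPM (0.10, interval -0.07 to 0.27, edgeR adjusted p = 0.297). Here 1CT replicate 3 lay inside the 1CT-A range, and without it the log2 fold change was 0.20 and passed (edgeR adjusted p = 0.00797). PSMB6, with the caspase-like site, was at 203, 209 and 206 CPM and at 193, 200 and 189 CPM (-0.12, interval -0.26 to 0.02, edgeR adjusted p = 0.134). All of its 1CT-A libraries lay below the 1CT libraries. With upper-quartile scaling PSMB6 passed, at -0.18 (edgeR adjusted p = 0.041).

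Of the 3 immunoproteasome beta genes tested, 1 was lower in 1CT-A and none was higher. The lower share of 33.3% was near the 26.0% of all genes tested. PSMB10, which takes the place of PSMB7, was at 60.7, 57.6 and 66.1 CPM in 1CT and at 51.0, 42.9 and 46.8 CPM in 1CT-A. All 1CT-A libraries lay below all 1CT libraries, and the log2 fold change of -0.43 (SE 0.10, edgeR adjusted p = 0.00223, a fold of 0.743) is the largest fall among the members. The call was kept under all 14 alternative fits, with adjusted p between 5.3e-04 and 0.0179. PSMB9, which takes the place of PSMB6, was at 16.1, 14.5 and 14.5 CPM in 1CT and at 17.8, 19.7 and 17.3 CPM in 1CT-A. Its libraries did not overlap, but its log2 fold change of 0.24 (interval -0.01 to 0.50) was not called (edgeR adjusted p = 0.106). PSMB8, which takes the place of PSMB5, was at 45.0, 39.8 and 47.9 CPM and at 46.7, 51.3 and 43.9 CPM, with overlapping groups (0.06, interval -0.15 to 0.27, edgeR adjusted p = 0.65). PSMB11, the thymus form, had no count in any library. White blood cells express these genes strongly, and their markers were at very low levels here. Whether such cells contributed to the values of these genes was not tested. The summed level of 10 leukocyte markers ranged from 1.30 to 2.82 CPM over the 1CT libraries and from 0.439 to 1.19 CPM over those of 1CT-A, 8 of them had at most 3 counts in every library, and PTPRC, CD3E and TYROBP had none. None of the 10 had enough counts for the edgeR test, and CD14, with 6, 12 and 13 counts in 1CT and 4, 4 and 6 counts in 1CT-A, was the single one whose CPM did not overlap between the lines.

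Read as ratios within a library, the level of the immunoproteasome form relative to its constitutive counterpart was lower in 1CT-A for PSMB10 and higher for PSMB9. These ratios are a description without a test. The log2 ratio of PSMB10 to PSMB7 was -3.54, -3.59 and -3.63 in 1CT and -4.06, -4.21 and -4.09 in 1CT-A, a difference of -0.54 with no overlap. The log2 ratio of PSMB9 to PSMB6 was -3.65, -3.85 and -3.83 in 1CT and -3.44, -3.35 and -3.45 in 1CT-A, a difference of 0.36 with no overlap. The log2 ratio of PSMB8 to PSMB5 differed by 0.03, and its groups overlapped. Over all these genes, the immunoproteasome forms made up 8.29%, 7.75% and 7.90% of the catalytic beta CPM in the 1CT libraries and 7.10%, 7.21% and 6.92% in the 1CT-A libraries, with no overlap. The reads come from the 3′ end of each transcript and are not divided by length. How well each 3′ end was captured is not known, so the ratios serve to compare libraries and not to compare one gene's abundance with another's.

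**Figure D3:**
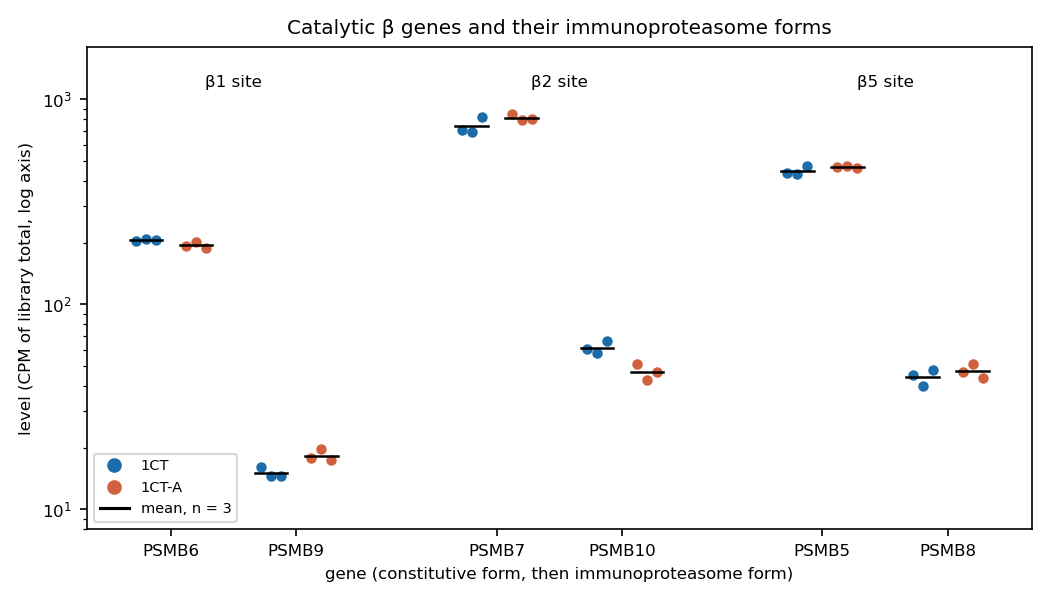
Level of each catalytic beta gene in each library, as CPM of the library total on a log axis (vertical), with the constitutive form beside its immunoproteasome form at each of the catalytic sites (horizontal). Blue points are 1CT libraries, orange points 1CT-A libraries and bars the mean of 3. PSMB10 is the gene whose orange points lie clearly below the blue ones, at 42.9 to 51.0 CPM against 57.6 to 66.1 CPM.

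PSMB8 and PSMB9 lie in the MHC class II region, where the RefSeq gene order is TAP2, PSMB8, TAP1 and PSMB9, and TAP1 and TAP2 form the transporter that carries peptides into the endoplasmic reticulum. Of these 4 neighbours TAP2 alone was called. TAP1 was at 22.0, 34.4 and 27.5 CPM in 1CT and at 21.6, 25.4 and 22.5 CPM in 1CT-A (log2 fold change -0.31, edgeR adjusted p = 0.0842), while TAP2 rose from 91.2, 106 and 75.6 CPM to 117, 120 and 124 CPM (0.37, SE 0.10, edgeR adjusted p = 0.0084). Without 1CT replicate 1, TAP1 was lower, at -0.46 (edgeR adjusted p = 0.00995). PSMB8-AS1, by its symbol an antisense RNA of PSMB8, had 180 to 229 counts in 1CT and 238 to 267 in 1CT-A beside 330 to 585 counts for PSMB8. The use of strand in counting is not given in the sources used here, so PSMB8 is uncertain.

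The promoters of the immunoproteasome genes are shown because interferon factors are known to act on this class of genes through repeats of GAAA. RefSeq promoter windows on GRCh38.p14, 250 bases before to 50 bases after a gene's start, matched 42 of the 48 members by symbol. The windows below run 5′ to 3′ along the gene's strand, with matches to GAAANNGAAA, searched on both strands, in capitals. The first is PSMB10 at chr16:67936801-67937100 (minus strand), the second the PSMB8 window that holds a match, chr6:32843998-32844297 (minus strand), and the third PSMB9 at chr6:32853942-32854241 (plus strand), which has no match.
PSMB10: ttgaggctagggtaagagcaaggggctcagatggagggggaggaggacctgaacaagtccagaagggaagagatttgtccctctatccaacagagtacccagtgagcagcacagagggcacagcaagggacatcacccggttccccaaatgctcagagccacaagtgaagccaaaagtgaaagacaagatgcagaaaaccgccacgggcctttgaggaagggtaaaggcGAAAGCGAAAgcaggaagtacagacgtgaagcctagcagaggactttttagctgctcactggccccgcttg
PSMB8: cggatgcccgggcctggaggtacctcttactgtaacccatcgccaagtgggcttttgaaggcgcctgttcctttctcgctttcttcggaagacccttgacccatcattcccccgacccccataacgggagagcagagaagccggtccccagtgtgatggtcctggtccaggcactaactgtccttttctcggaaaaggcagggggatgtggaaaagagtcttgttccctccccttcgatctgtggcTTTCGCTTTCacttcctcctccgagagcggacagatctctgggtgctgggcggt
PSMB9: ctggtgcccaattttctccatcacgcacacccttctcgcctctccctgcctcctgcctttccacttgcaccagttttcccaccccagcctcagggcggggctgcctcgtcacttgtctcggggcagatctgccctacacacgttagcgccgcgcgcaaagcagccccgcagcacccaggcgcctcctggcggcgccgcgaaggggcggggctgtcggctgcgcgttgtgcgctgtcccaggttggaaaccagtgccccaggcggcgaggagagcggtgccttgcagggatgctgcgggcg

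The letters GAAANNGAAA occurred in 7 of the 42 members (16.7%), PSMA4, PSMB4, PSMB8, PSMB10, PSME1, PSME2 and PSMG4, and in 4.38% of all 27305 symbols with a promoter window. PSMB10, PSMB8, PSME1, PSME2 and PSMG4 held the very same letters, GAAAGCGAAA on one strand or the other, which occurred in 34 of the 27305 symbols (0.125%). This exact form was picked after the windows were seen. The first base of the match lay between -33 and 6 relative to the start in these genes. The pieces around it that are not printed above lie at chr14:24136189-24136218 (PSME1, plus strand), chr14:24146619-24146648 (PSME2, minus strand) and chr6:3258904-3258933 (PSMG4, plus strand).
PSME1: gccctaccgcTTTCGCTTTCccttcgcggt
PSME2: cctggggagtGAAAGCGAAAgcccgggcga
PSMG4: ttccggggccGAAAGCGAAAgcgcgctcgg
Of these 5 genes PSMB10 was called lower in 1CT-A, and the other 4 were not called.

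The ATPases of the cap form the ring that unfolds the substrate. Of the 6 genes, 3 were higher in 1CT-A and none was lower. PSMC6 rose most, from 96.8, 92.0 and 83.1 CPM to 136, 142 and 136 CPM (log2 fold change 0.56, SE 0.08, edgeR adjusted p = 4.4e-05). PSMC4 (0.33) and PSMC1 (0.31) followed. For all 3, every 1CT-A library was above every 1CT library, as was so for 31.8% of all genes tested. The other ATPase genes, PSMC2 (0.18), PSMC5 (0.07) and PSMC3 (-0.02), overlapped between the lines and were not called, although PSMC2 passed without 1CT replicate 2 (0.26, edgeR adjusted p = 0.049).

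Of the 3 scaffold and ubiquitin receptor genes of the cap base, 1 was lower in 1CT-A and none was higher. The lower share of 33.3% was near the 26.0% of all genes tested. PSMD2, the large scaffold on which ubiquitin shuttles dock, was at 390, 356 and 407 CPM in 1CT and at 351, 331 and 338 CPM in 1CT-A. Every 1CT-A library was below every 1CT library, and the fall was -0.22 on the log2 scale (SE 0.07, edgeR adjusted p = 0.0235). That call was lost without 1CT replicate 1 and without either 1CT-A replicate 2 or 1CT-A replicate 3 (edgeR adjusted p = 0.0654, 0.1 and 0.0896). PSMD1, the other scaffold, was not called (0.07, interval -0.10 to 0.25), and neither was the ubiquitin receptor PSMD4 (-0.04, interval -0.20 to 0.11).

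The lid, which holds the deubiquitinase that strips the chain from a substrate, had called rises in 6 of its 8 genes and no called fall. The higher share was 75.0%, against 25.0% of all genes tested. PSMD11 was at 420, 458 and 411 CPM in 1CT and at 629, 697 and 660 CPM in 1CT-A, with no overlap and a log2 fold change of 0.59 (SE 0.07, edgeR adjusted p = 1.1e-05), the largest of all members. PSMD12 (0.51), PSMD7 (0.45), PSMD6 (0.39), PSMD14 (0.29) and PSMD13 (0.19) rose as well. PSMD14, the deubiquitinase itself, went from 101, 99.5 and 116 CPM to 128, 128 and 142 CPM (SE 0.09, edgeR adjusted p = 0.0119). Its libraries did not overlap, but the call was lost without 1CT replicate 1 or 1CT-A replicate 3 (edgeR adjusted p = 0.0504 and 0.0666). PSMD13 lost its call without 1CT replicate 1, 1CT replicate 2, 1CT-A replicate 2 or 1CT-A replicate 3 (edgeR adjusted p = 0.138, 0.0515, 0.0927 and 0.108). PSMD8 was not called (-0.11, interval -0.26 to 0.04). PSMD3 was not called either (0.17, edgeR adjusted p = 0.0789), with 1CT-A libraries at 854, 710 and 821 CPM above 694, 688 and 685 CPM, and it passed without 1CT replicate 3 or 1CT-A replicate 2 (0.18 and 0.25, edgeR adjusted p = 0.0463 and 0.0146). With scaling by library size only and with no filter PSMD3 passed too (0.205 and 0.214, edgeR adjusted p = 0.0298 and 0.0101).

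**Figure D4:**
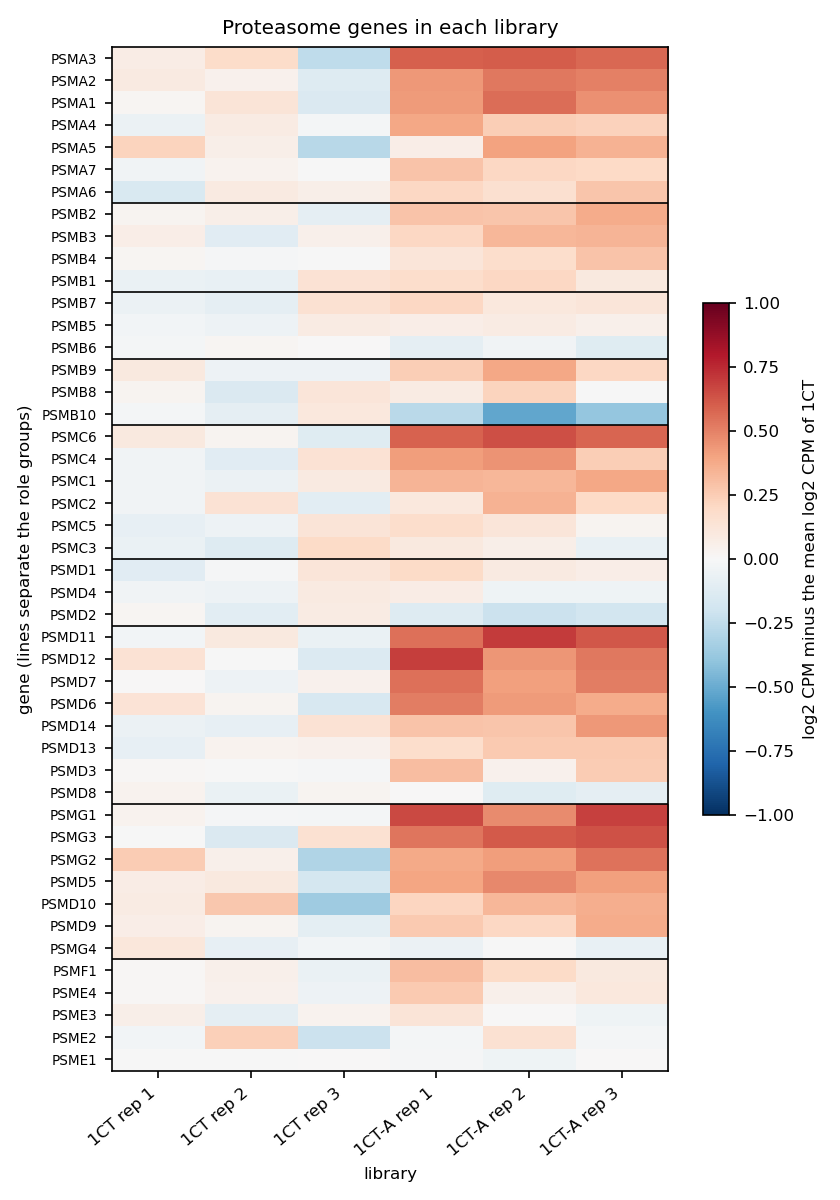
Log2 CPM of each of the 46 proteasome genes tested (rows, in the order of the role groups) in each library (columns), minus the mean log2 CPM of the gene in 1CT. Red is higher and blue lower than the 1CT mean. The 1CT-A columns are red for most genes of the alpha ring, lid and chaperones and blue for PSMB10 and PSMD2. The column of 1CT replicate 3 is bluer than the other 1CT columns for some genes, such as PSMA3 at 77.5 CPM against 97.4 and 105 CPM.

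Assembly chaperones hold half-built particles together and leave the finished proteasome. Of the 7 genes with a PSM symbol, 5 (71.4%, against 25.0% of all genes tested) were higher in 1CT-A. The median of the 7 was 0.38 on the log2 scale. PSMG1, which with PSMG2 guides the alpha ring, rose from 84.6, 81.9 and 81.7 CPM to 131, 114 and 133 CPM (0.57, SE 0.08, edgeR adjusted p = 7.3e-05). PSMG3, which works with PSMG4, rose from 86.7, 78.6 and 96.4 CPM to 126, 133 and 135 CPM (0.55, SE 0.09, edgeR adjusted p = 1.6e-04). In both genes all 1CT-A libraries were above all 1CT libraries. PSMG2 rose (0.39, edgeR adjusted p = 0.0227), and PSMG4 was not called (-0.09, interval -0.27 to 0.10). Among the chaperones of the cap base, PSMD5 (0.38) and PSMD9 (0.24) rose, and PSMD10, also known as gankyrin, was at 0.24 and was not called (edgeR adjusted p = 0.117). PSMG2 lost its call without 1CT replicate 3 (0.27, edgeR adjusted p = 0.0575) or 1CT-A replicate 3 (0.35, edgeR adjusted p = 0.0884), PSMD9 without 1CT-A replicate 3 (0.20, edgeR adjusted p = 0.0748), and PSMD10 passed without 1CT replicate 2 (0.38, edgeR adjusted p = 0.0188).

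The activators, which open the core in place of the cap, gave no call in either direction. Of all genes tested, 51.0% were called in either direction. PSME1 was at 37.5, 37.4 and 37.6 CPM in 1CT and at 37.2, 36.3 and 37.7 CPM in 1CT-A (log2 fold change -0.06, interval -0.24 to 0.12, edgeR adjusted p = 0.604). Its partner PSME2 in the interferon-inducible ring was at 33.5, 40.3 and 29.4 CPM and at 33.7, 38.0 and 33.6 CPM (-0.01, interval -0.25 to 0.23, edgeR adjusted p = 0.945). The lines overlapped for both genes, which lie close together in the RefSeq gene order with EMC9 between them. PSME3, the nuclear activator, was at 123, 111 and 121 CPM and at 130, 119 and 115 CPM (-0.01, interval -0.18 to 0.17, edgeR adjusted p = 0.941). PSME4, a nuclear activator that caps the core as a single chain, was at 138, 141 and 132 CPM and at 165, 142 and 147 CPM (0.10, interval -0.07 to 0.27, edgeR adjusted p = 0.298). PSMF1, which binds the core and acts on its assembly and activity, was at 40.2, 41.4 and 38.1 CPM and at 49.3, 45.6 and 42.8 CPM (0.16, interval -0.03 to 0.35, edgeR adjusted p = 0.15). For PSME4 and PSMF1 the libraries of the lines did not overlap, by a narrow margin, and neither passed.

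Summed over a group, the proteasome genes took 0.781%, 0.778% and 0.806% of the counts in the 1CT libraries and 0.924%, 0.896% and 0.902% in the 1CT-A libraries. No test was run on these sums. The summed assembly chaperones were at 666, 642 and 608 CPM in the 1CT libraries and at 808, 792 and 860.4 CPM in the 1CT-A libraries, a ratio of 1.28 between the means. The ratio was 1.25 for the alpha ring, 1.23 for the lid, 1.17 for the ATPases and 1.15 for the structural beta genes, with every 1CT-A library above every 1CT library in each of these groups. It was 1.06 for the constitutive catalytic beta genes, 0.961 for the base scaffold and receptor genes and 0.932 for the immunoproteasome beta genes, where the lines overlapped. The activators with PSMF1 had a ratio of 1.06 without overlap. The core without its immunoproteasome forms and the cap had nearly the same ratios, 1.14 and 1.15.

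**Figure D5:**
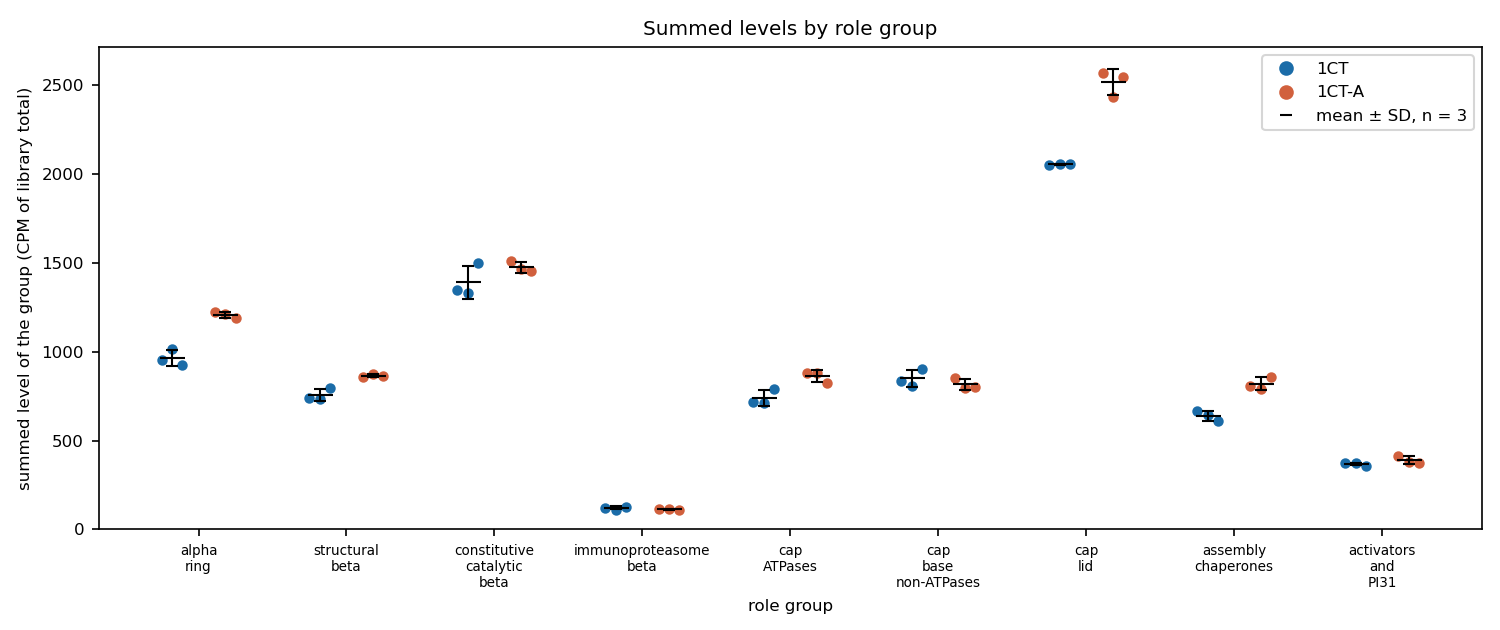
Summed level of each role group (horizontal axis) as CPM of the library total (vertical axis, from 0), with 1 point per library, blue for 1CT and orange for 1CT-A, and the mean ± SD of 3 libraries in black. The lid stands at 2055 CPM in 1CT and 2519 CPM in 1CT-A on average, while the catalytic, base scaffold and immunoproteasome groups overlap between the lines.

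NFE2L1 is the transcription factor known to raise proteasome genes together when proteasome activity falls short, and it binds antioxidant response elements, which NFE2L2 also binds. The core letters TGACNNNGC, searched on both strands, occurred in the promoter windows of 15 of the 42 members (35.7%) and of 16.1% of all symbols. Among members called higher they occurred in 8 of 19 with a window, and among the other members tested in 7 of 21. CCAAT, which also occurs in many promoters of cell cycle genes, was in 20 of 42 members (47.6%, against 39.7% of all symbols), and the E-box CACGTG bound by MYC in 3 (7.14%, against 8.77%). The pieces with TGACNNNGC or its reverse complement in capitals are given for genes called higher in 1CT-A, since they show how the letters vary within the group.
PSMA4: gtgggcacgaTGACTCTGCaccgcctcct
PSMB3: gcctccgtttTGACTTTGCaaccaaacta
PSMC4: acagaggccgGCTTGGTCActatggagga
PSMD12: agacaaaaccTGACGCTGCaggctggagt
PSMD5: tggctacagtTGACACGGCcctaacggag
PSMD9: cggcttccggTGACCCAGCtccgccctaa
PSMG1: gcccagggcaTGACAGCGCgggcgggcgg
PSMG2: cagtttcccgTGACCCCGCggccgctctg
These pieces lie at chr15:78540650-78540678 (PSMA4), chr17:38752627-38752655 (PSMB3), chr19:39971182-39971210 (PSMC4), chr17:67366724-67366752 (PSMD12), chr9:120843038-120843066 (PSMD5), chr12:121888678-121888706 (PSMD9, which has another match), chr21:39183616-39183644 (PSMG1) and chr18:12658689-12658717 (PSMG2), of which PSMD12, PSMD5 and PSMG1 are on the minus strand. Among the largest rises, PSMD11, PSMC6 and PSMA3 had no such match in their windows, PSMG1 and PSMD12 had one, and PSMG3 had no window.

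The factors themselves differed in direction. NFE2L1 was at 164, 174 and 163 CPM in 1CT and at 132, 125 and 141 CPM in 1CT-A, a log2 fold change of -0.37 (SE 0.07, edgeR adjusted p = 9.4e-04). NFE2L2, the factor of the oxidant response, was at 56.2, 65.1 and 45.2 CPM and at 120, 141 and 141 CPM (1.23, SE 0.11, edgeR adjusted p = 1.55e-06). Neither gene overlapped between the lines, NFE2L1 being lower and NFE2L2 higher in every 1CT-A library. NFE2L3, a relative of NFE2L1, fell from 3.31, 3.26 and 1.93 CPM to 0.627, 0.439 and 0.476 CPM, which are 5 to 7 counts (-2.48, SE 0.37, edgeR adjusted p = 9.9e-05). NGLY1, which removes sugars from NFE2L1 on its way to activity, was higher at 0.42 (edgeR adjusted p = 0.0485), a call that was lost when any library other than 1CT replicate 2 was left out (edgeR adjusted p = 0.0551 to 0.138). DDI2, the protease that cleaves NFE2L1, had at most 4 counts in a library, too few for the edgeR test.

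Genes that work with the proteasome under other symbols were 42 in all. Of the 41 tested, 11 were higher (26.8%) and 9 lower (22.0%) in 1CT-A, close to the 25.0% and 26.0% of all genes. Among cap subunits and enzymes, 4 of 7 (57.1%, against 25.0% of all genes tested) were higher and none lower. UCHL5, the deubiquitinase docked on ADRM1, rose from 52.8, 46.4 and 44.4 CPM to 65.4, 59.7 and 65.9 CPM (0.37, SE 0.09, edgeR adjusted p = 0.0038), with KIAA0368 (0.34), the proteasome adaptor now named ECPAS, TXNL1 (0.30) and USP14 (0.22). ADRM1, a ubiquitin receptor, was not called (-0.08, interval -0.26 to 0.11), and SHFM1, the older symbol of the small lid subunit SEM1, was at 0.16 (edgeR adjusted p = 0.106). TXNL1 lost its call without 1CT replicate 1 or any single 1CT-A library (edgeR adjusted p = 0.0609 to 0.159), and USP14 without 1CT replicate 2, 1CT-A replicate 1 or 1CT-A replicate 3 (edgeR adjusted p = 0.0574 to 0.0755).

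Of the 3 factors of assembly or nuclear import with other symbols, 1 was higher and 1 lower. These shares of 33.3% each were near the 25.0% higher and 26.0% lower of all genes tested. The maturation chaperone POMP was at 658, 641 and 649 CPM in 1CT and at 591, 576 and 622 CPM in 1CT-A. All 1CT-A libraries were lower, but the fall of -0.16 (SE 0.06, edgeR adjusted p = 0.0433) passed narrowly and was lost when any library other than 1CT replicate 3 was left out (edgeR adjusted p = 0.064 to 0.18). AKIRIN2, which brings proteasomes into the nucleus, rose from 24.7, 18.96 and 15.2 CPM to 30.9, 34.5 and 29.7 CPM (0.65, SE 0.14, edgeR adjusted p = 0.00213). Of the shuttles that bring ubiquitin chains to the cap, RAD23B (0.33) rose, and UBQLN1 (0.21), UBQLN2 (0.17) and UBQLN4 (0.38) were not called. UBQLN1 passed without 1CT replicate 2 (0.29, edgeR adjusted p = 0.0326) and UBQLN4 without 1CT replicate 3 (0.58, edgeR adjusted p = 0.0448). The unfoldase VCP was not called (-0.04, interval -0.17 to 0.09). ZFAND5 and ZFAND2A are zinc finger proteins that associate with the proteasome. ZFAND5 rose from 53.4, 79.3 and 50.1 CPM to 88.8, 95.3 and 98.4 CPM (0.59, SE 0.13, edgeR adjusted p = 0.00262). ZFAND2A fell from 18.1, 16.3 and 16.7 CPM to 10.8, 13.96 and 11.7 CPM (-0.53, SE 0.13, edgeR adjusted p = 0.00519). In neither gene did the lines overlap. RPS27A, which encodes ubiquitin fused to a ribosomal protein, was not called, at 0.11, but passed without 1CT replicate 3 (0.16, edgeR adjusted p = 0.0101).

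Genes of the interferon response and of peptide loading, the usual company of the immunoproteasome, had 1 of 13 higher and 4 lower. The shares were 7.69% and 30.8%, against 25.0% and 26.0% of all genes tested, so the lower share was near that of all genes. IRF1, a transcription factor of the interferon response, was at 17.2, 23.2 and 15.5 CPM and at 15.5, 19.3 and 12.4 CPM, with overlapping groups (-0.29, interval -0.67 to 0.10, edgeR adjusted p = 0.195). TAPBP, the tapasin that bridges TAP to class I molecules, fell from 162, 159 and 199 CPM to 98.2, 97.7 and 93.9 CPM (-0.88, SE 0.09, edgeR adjusted p = 5.3e-06). The peptide trimming enzymes ERAP1 (-0.40) and ERAP2 (-1.09) were lower. ERAP2 was at 1.18, 1.93 and 2.05 CPM in 1CT and at 0.896, 0.527 and 1.03 CPM in 1CT-A (SE 0.38, edgeR adjusted p = 0.0309), a call that was lost when any library other than 1CT replicate 1 or 1CT-A replicate 3 was left out (edgeR adjusted p = 0.0618 to 0.112). B2M varied within 1CT from 825 CPM in replicate 3 to 1875 CPM in replicate 2 and was not called (-0.08), but without 1CT replicate 3 it was lower, at -0.31 (edgeR adjusted p = 0.043).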

How the data were processed

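Bulk RNA was measured in 3 libraries of 1CT and 3 of 1CT-A, made per the labels with a QuantSeq 3′ kit from 500 ng of total RNA. The authors deposited raw counts per gene symbol, 1 file per library, without normalization or pooling. The submitters' processing notes name Bowtie2, edgeR and the build hg19, without roles or versions. The counting tool, annotation, strand setting and filters are not given in the sources used here. Each file held 25737 rows. Counts of the 286 repeated symbols were summed, among them PSMB8 and PSMB9 with 8 rows each, of which 1 had counts.

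Counts were normalized by TMM (edgeR 4.0.16, R 4.3.3), filtered with filterByExpr at a minimum count of 10, and tested between the lines by edgeR's quasi-likelihood test without a block, with Benjamini-Hochberg adjustment over 12514 genes and calls at an adjusted p under 0.05. Levels are CPM of each file's total without TMM, and fold changes come from the fit. Intervals at 95% use the t distribution of the fit and are not adjusted. A count of 3 was taken as the limit of detection, for counting error only. An exact permutation test of 3 against 3 cannot go below p = 0.1. The scripts were tested on simulated data.

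The members, role groups, gene lists and tests were chosen with earlier results of these data known. Values by library are given for the catalytic and immunoproteasome beta genes, PSME1 to PSME4, PSMF1, and the called genes with the largest rise and fall of each other group, plus NFE2L1, POMP, IRF1 and TAP1. Some genes that this rule names are not reported here. Values by library of PSMB3, PSMD14, PSMD3, PSMG3, TAPBP and B2M, and mention of other pathway genes, were added after their values were seen. Promoters are RefSeq sequences on GRCh38.p14, which is not the build of the counts. Alternatives were DESeq2 size factors, library size only and upper-quartile scaling, no filter, a floor of 10 counts per library, limma-voom (limma 3.58.1), DESeq2 1.42.0, the replicate block, an adjusted p under 0.01, a fold change of at least 1.5, and each library left out, and for summed levels TMM-scaled library sizes and the first row of a repeated symbol. Figures were drawn with matplotlib 3.10.9.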

Additional observations from a re-analysis of the deposited data

How the results depend on the processing

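The count of higher proteasome genes stayed within 16 to 24, and that of lower ones within 1 to 3, under 14 alternative fits. In the order higher and lower, a fold change of at least 1.5 left 1 and 0, an adjusted p under 0.01 left 14 and 1, and no filter gave 24 and 1. Without each library in turn the lower count was 1 to 2. Of the pathway genes, a fold change of at least 1.5 left 3 and 3. Summed CPM on TMM-scaled library sizes gave ratios of 1.11 for the core, 1.12 for the cap and 1.12 for all members. Of the 21 higher members, 14 kept their call under every alternative fit, and PSMA4, PSMA7, PSMB3, PSMD13, PSMD14, PSMD9 and PSMG2 did not. Of the 2 lower members, PSMB10 kept its call and PSMD2 did not. PSMA4, PSMA7, PSMB3, PSMD13 and PSMD2 lost their calls in some alternative fits that kept all 6 libraries. Of the pathway genes, USP14, TXNL1, NGLY1, POMP and ERAP2 did so too. In the other direction, the uncalled members PSMB4, PSMB6, PSMD3 and PSMD10 passed in some alternative fits that kept all 6 libraries. Among the pathway genes named here, SHFM1, UBQLN1, RPS27A and TAP1 did the same. No called member changed sign. The causes were not tested.

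The libraries gave no clear sign of pairing by replicate number, which 3 libraries per line cannot exclude. Same-numbered deviations correlated at -0.157, 0.216 and -0.136 over 8224 genes, and not every library correlated best with its own number. With the replicate block, 18 proteasome genes were higher and 2 lower, pathway genes 10 and 8, and 6091 of all genes were called in place of 6388. PSMA8, PSMB11 and DDI2 had too few counts for the edgeR test.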

Other observations

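Other symbols that begin like a proteasome gene but fall outside the rule were counted in the same libraries, and they were not compared here. PSMC3IP, which encodes a meiotic recombination partner and no proteasome subunit, had 302, 263 and 185 counts in 1CT and 554, 760 and 708 in 1CT-A. PSMA3-AS1, an antisense RNA beside PSMA3, had 301, 316 and 266 counts in 1CT and 375, 404 and 389 in 1CT-A. PSMD6-AS2, PSMG3-AS1 and PSMD5-AS1 had at most 42 counts in any library. Since the strand setting of the counting is not given in the sources used here, reads of PSMA3 and PSMA3-AS1 where they overlap cannot be told apart.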
